A study of Homo sapiens with 4 samples.

Results

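Open chromatin was described around BMP4 and 4 genes known to respond to BMP signalling, ID1, ID2, ID3 and MSX2, in H1 cells, an established line of human embryonic stem cells. The members were all ATAC-seq peaks lying wholly or partly within 50 kb of 1 of these 5 genes on hg19. ATAC-seq uses a transposase that cuts accessible DNA, and a peak is a stretch where such cuts pile up. There were 195 such peaks among the 181268 of all 4 peak lists. Overlapping or touching peaks of the 4 lists were merged, which placed the 195 peaks in 76 of the 87966 merged regions of the genome.

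The libraries came from cells exposed to Activin A, to Wnt3a or to both ligands, each at 25 ng/ml, and from control cells. Exposure lasted 6 h, and the labels state no harvest time for control. Per the labels' protocols, all cells were first grown without feeder cells in medium with N2, B27 and basic fibroblast growth factor. Control cells stayed in it, while all 3 treated groups received a medium listed with B27 but without N2 or the growth factor. The ligand and the medium therefore cannot be told apart in a comparison with control, whereas the treated groups differed from each other only in the ligands listed. Each group had 1 library, so no test between groups was possible and every difference here is between single libraries. The label of the cells was not checked against marker genes.

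BMP4 is a secreted ligand of the TGF-beta family that binds paired type I and type II receptor kinases, which phosphorylate SMAD1 and SMAD5. ID1, ID2 and ID3 encode helix-loop-helix proteins without a DNA-binding region that hold basic helix-loop-helix factors away from DNA, and their transcription is a standard readout of BMP signalling. MSX2 is a homeobox transcription factor that BMP signalling induces in many embryonic tissues. Activin A belongs to the same ligand family but acts through SMAD2 and SMAD3, and Wnt3a stabilises beta-catenin. In human pluripotent cells, BMP4 is used to start mesoderm or trophoblast-like differentiation, depending on the accompanying signals.

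The spans used were chr14:54416454-54425479 on the minus strand for BMP4, chr20:30193086-30194318 on the plus strand for ID1 and chr2:8818975-8824583 on the plus strand for ID2. ID3 lay at chr1:23884409-23886322 on the minus strand, and MSX2 at chr5:174151575-174157902 on the plus strand. A window is not its gene alone. By the order of genes in RefSeq (GRCh38.p14), the ID1 window also reached HM13 and COX4I2, that of ID2 reached KIDINS220 and that of ID3 reached E2F2. The BMP4 window reached the protein-coding gene LOC124903317, and that of MSX2 reached no other protein-coding gene. Peaks below are given by window and distance and are not assigned to a target gene. Starts, ends and the inside of a gene refer to these spans. The RefSeq spans were shorter for BMP4, ID2 and ID3, at 7156, 2406 and 1576 bp against 9026, 5609 and 1914 bp. The RefSeq starts of these 3 genes were not placed on hg19 and may differ from the starts used.

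ID1 and MSX2 are the genes whose starts could be placed under peaks with the least doubt, because their hg19 and RefSeq spans nearly matched in length, at 1233 and 1222 bp for ID1 and 6328 and 6315 bp for MSX2. The ID1 start lay under a peak in all 4 lists, and the MSX2 start under a peak in the 3 treated lists and under none in control. Their RefSeq promoter windows (GRCh38.p14, 250 bases before to 50 after the start, both on the plus strand) are printed with each CpG dinucleotide in capitals. They lie at chr20:31605039-31605338 for ID1 and chr5:174724332-174724631 for MSX2.
ID1 promoter: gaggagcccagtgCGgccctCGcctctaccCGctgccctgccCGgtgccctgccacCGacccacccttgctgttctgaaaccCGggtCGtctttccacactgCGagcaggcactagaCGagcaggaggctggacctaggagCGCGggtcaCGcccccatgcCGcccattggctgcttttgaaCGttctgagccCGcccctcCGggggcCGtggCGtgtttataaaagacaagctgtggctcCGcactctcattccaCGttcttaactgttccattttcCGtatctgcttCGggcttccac
MSX2 promoter: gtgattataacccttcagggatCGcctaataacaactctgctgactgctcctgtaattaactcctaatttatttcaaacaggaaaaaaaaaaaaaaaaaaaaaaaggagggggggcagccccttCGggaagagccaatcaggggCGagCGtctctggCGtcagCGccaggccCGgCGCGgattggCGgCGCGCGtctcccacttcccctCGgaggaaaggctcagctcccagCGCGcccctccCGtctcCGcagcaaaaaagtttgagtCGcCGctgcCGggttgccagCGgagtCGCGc

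The ID1 promoter window held 22 CpG dinucleotides and 62.7% G or C, and the MSX2 promoter window 24 and 57%. The median of the 35116 RefSeq promoter windows was 14 CpG dinucleotides and 58.7% G or C, so both promoters were richer in CpG than the median window while their base composition lay on either side of it. The ID2 promoter window held 33 CpG dinucleotides, that of ID3 held 27, and the 3 promoter windows of BMP4 held 32, 23 and 30. Exact matches on both strands were sought to GGCGCC, GTCTAGAC and CAGACA, which are sequences bound by SMAD proteins, to CTTTGAT, which TCF and LEF factors bind, and to the E-box CACGTG. No motif is contained in another, and the shares of all windows holding them were 19.2%, 0.202%, 16.9%, 2.62% and 7.26% in that order. None of these letters occurred in the promoter windows of ID1, ID2, ID3 or MSX2. The first BMP4 promoter window had 2 matches to GGCGCC and the last had 1 to CAGACA and 1 to CACGTG. A match is a description of the letters only, and the promoter windows of BMP4, ID2 and ID3 were not placed on the hg19 peaks because the spans of the 2 builds differed more.

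The Activin A list had the most peaks in the 5 windows and the control list the fewest, while the Wnt3a list had slightly more than control although it was the shortest list. The counts were 74 peaks for Activin A, 34 for Wnt3a, 56 for both ligands and 31 for control. The whole lists held 75585, 21078, 58382 and 26223 peaks in the same order. Relative to control, the windows thus held 2.39, 1.10 and 1.81 times as many peaks, against 2.88, 0.804 and 2.23 times in the whole lists. The windows took 0.0979% of the Activin A list (exact Clopper-Pearson 95% interval 0.0769 to 0.123), 0.161% of the Wnt3a list (0.112 to 0.225), 0.0959% of the list of both ligands (0.0725 to 0.125) and 0.118% of the control list (0.0803 to 0.168). These intervals overlap, and they cover counting error only. Peaks covered 70.8 kb of the windows with Activin A, 24.7 kb with Wnt3a, 63.8 kb with both ligands and 29.8 kb in control. The covered length in the treated lists was thus 2.37, 0.828 and 2.14 times that of control, against 3.08, 0.737 and 2.55 times in the whole lists.

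The score in each list is the authors' own value, which may grow with depth, and the depth behind each list is unknown. A score is therefore given as a percentile, the share of peaks in the same list that score lower. Longer lists add weak peaks, so the percentile of a given peak is higher in a longer list by construction. For that reason the lists were also reduced to their 21078 best-scoring peaks, the length of the Wnt3a list, and percentiles in these equal-length lists are given for the regions described. A peak outside the best-scoring 21078 of its list has no equal-length percentile and counts as absent at that length. At equal length the windows held 27 regions with Activin A, 29 with Wnt3a, 30 with both ligands and 23 in control. The spread of regions between lists was much narrower at that length than in the whole lists, where the counts were 67, 29, 53 and 27.

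**Figure D1:**
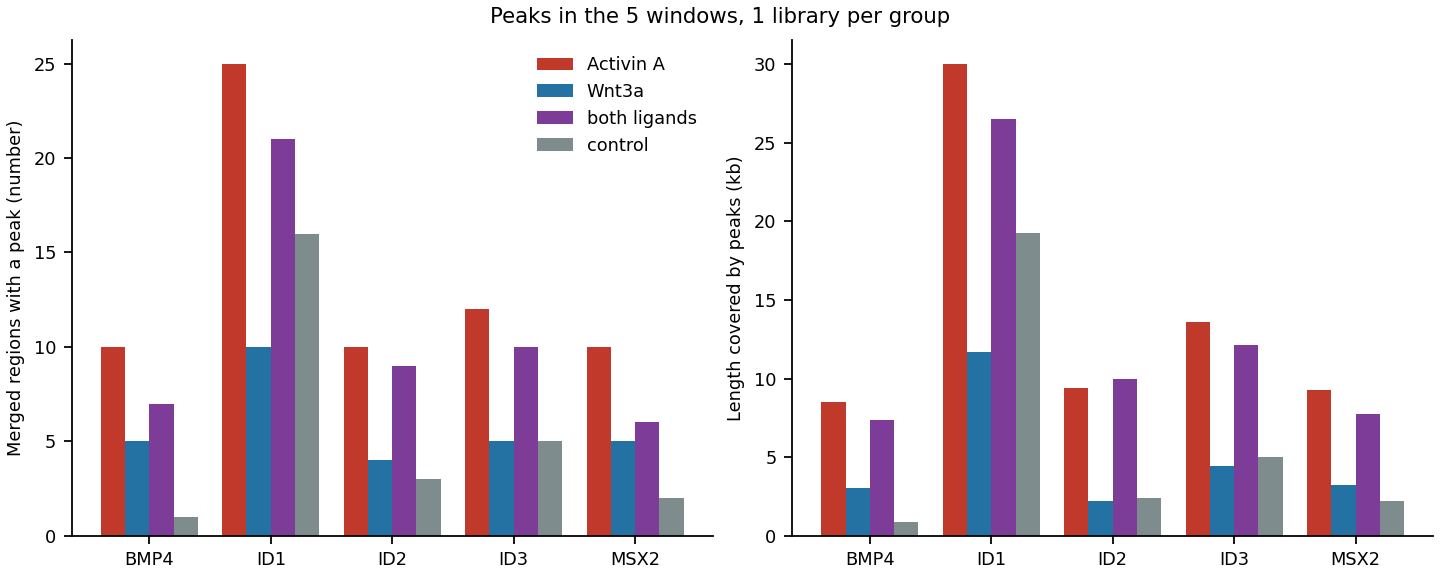
Merged regions with a peak (left, number) and length covered by peaks (right, kb) in the window of each gene, with 1 bar per library for Activin A, Wnt3a, both ligands and control. The BMP4 window held 10, 5 and 7 regions in the treated lists against 1 in control, while the ID1 window held 25, 10 and 21 against 16.

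The 5 windows differed in how much open chromatin control cells already had. ID1 lay in the most accessible window, which held 25 regions with Activin A, 10 with Wnt3a, 21 with both ligands and 16 in control. BMP4 stood at the other end, with 10, 5 and 7 regions in the treated lists and 1 in control. The ID2 window held 10 regions with Activin A, 4 with Wnt3a, 9 with both ligands and 3 in control. The ID3 window held 12, 5, 10 and 5 in the same order of groups. For MSX2 the counts were 10 with Activin A, 5 with Wnt3a, 6 with both ligands and 2 in control. Thus the BMP4, ID2 and MSX2 windows had more regions in all 3 treated lists than in control, and the ID1 window had fewer with Wnt3a than in control. Over the genome there were 73116 regions with Activin A, 19801 with Wnt3a, 56055 with both ligands and 24769 in control. At equal length BMP4 had 2 regions with Activin A, 5 with Wnt3a, 4 with both ligands and 1 in control, and MSX2 had 3, 5, 3 and 2. In the same order ID2 had 4, 4, 5 and 3, and ID3 had 6, 5, 6 and 4. ID1 then had 12, 10, 12 and 13, so its window no longer gave more regions with Activin A or both ligands than in control.

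**Figure D2:**
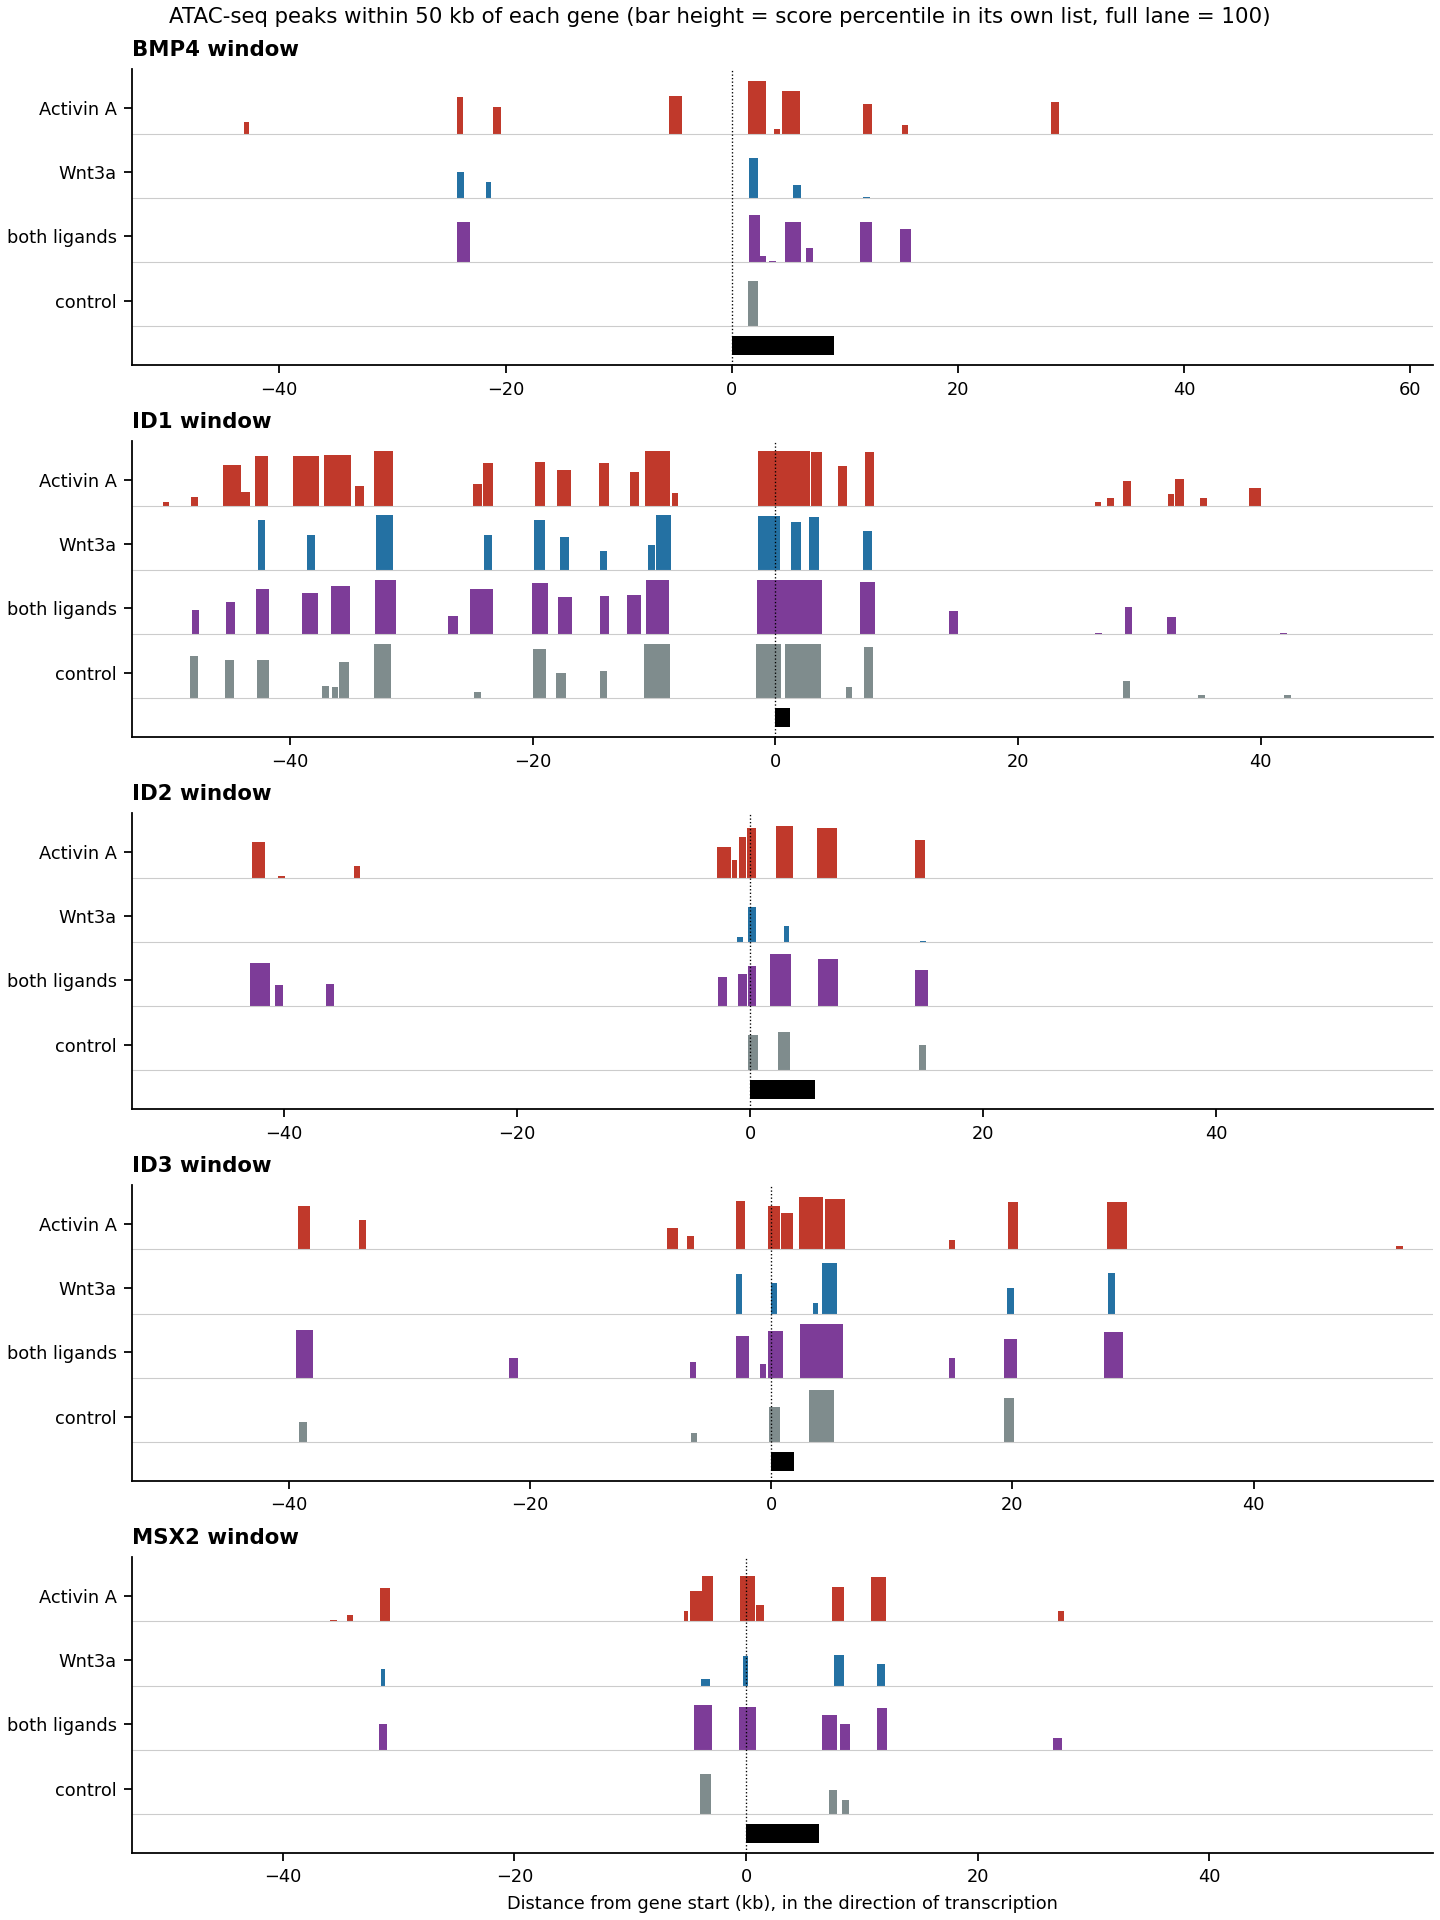
Peaks of the 4 libraries by distance from the gene start (kb, in the direction of transcription), 1 panel per gene and 1 lane per library, with bar height giving the score percentile in its own list and the black bar the gene. Control had a single peak in the BMP4 window, inside the gene span used, and no peak over the MSX2 start.

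BMP4 itself carried the only control peak of its window. This peak lay within the gene span used, at chr14:54423125-54424024, and at percentile 83.8 of the control list. The merged region around it, chr14:54422413-54424034, reached percentile 95.6 with Activin A, 73.5 with Wnt3a and 85.7 with both ligands. Its peak was 1622 bp wide with Activin A and 803 bp with Wnt3a, the best of its peaks was 955 bp wide with both ligands, and the control peak was 900 bp wide. The Activin A peak was thus the highest and widest of the 4, and Wnt3a gave the lowest percentile. At equal length the percentiles were 84.2 with Activin A, 73.5 with Wnt3a, 60.3 with both ligands and 79.8 in control, which put both ligands lowest. The 5' end of the BMP4 span lay under no peak in any list, the nearest peak ending 1445 bp away with Activin A. That span was longer than the RefSeq span, at 9026 against 7156 bp, so a RefSeq start inside it may lie under these peaks.

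The other regions in BMP4 had no control peak. A region in the 3' part of the gene, chr14:54419350-54421004, was at percentile 78.2 with Activin A, 22.9 with Wnt3a and 72.9 with both ligands. At chr14:54421221-54422182 a weak peak was present with Activin A (9.31) and both ligands (1.73), and at chr14:54418266-54418897 with both ligands only (26.6). The region in the 3' part had equal-length percentiles of 22.0, 22.9 and 24.9 for Activin A, Wnt3a and both ligands, so the gap between Activin A and Wnt3a was gone, and both weak regions were absent. Outside the gene, the region centred 11.9 kb downstream of the gene start, 2.29 kb past the gene's end, stood at percentile 55.0 with Activin A, 0.785 with Wnt3a and 73.3 with both ligands. Another, 23.7 kb upstream of the start at chr14:54448616-54449772, stood at 67.8, 46.9 and 74.4 in the same order. All 3 treated groups in the whole lists therefore shared an intragenic, a downstream and an upstream region that control lacked. At equal length only the intragenic one was in all 3, since the downstream region (0.785 with Wnt3a, 26.2 with both ligands) and the upstream region (46.9 and 29.1) had no Activin A peak. A region 4.98 kb upstream, chr14:54429906-54431014, had a peak with Activin A only, at percentile 68.7, and 1 region 21.5 kb upstream had a peak with Wnt3a only, at 30.0. The remaining 4 regions of the window all had an Activin A peak, at percentiles of 16.3 to 58.5, and 1 of them also had a peak with both ligands, at 61.6. None of these 4, nor the region 4.98 kb upstream, had an equal-length peak.

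ID1 was open in all 4 lists at close to the top of each list. The region over the gene, chr20:30191461-30196968, had its best peak at percentile 99.7 with Activin A, 99.3 with Wnt3a, 99.9 with both ligands and 99.8 in control. Its peaks covered 5149 bp with Activin A, 3482 bp with Wnt3a, 5388 bp with both ligands and 5170 bp in control. At equal length the percentiles were 99.0, 99.3, 99.8 and 99.7 in the same order. Values this close to the top leave little room for a difference to show, and the stretch covered was shortest with Wnt3a. The merged region takes in the promoter printed above and the whole of the short gene.

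A pair of distal regions upstream of ID1 was as high as the gene itself. The region at chr20:30160009-30161842, 32.2 kb upstream, stood at percentile 99.8 with Activin A, 99.7 with Wnt3a, 99.9 with both ligands and 99.2 in control. That at chr20:30182239-30184466, 9.73 kb upstream, stood at 99.7, 99.5, 99.9 and 99.5 in the same order. Equal-length values of both regions ran from 99.0 to 99.8, again at the top of the scale. Downstream, the region 7.6 kb from the start was at 97.6 with Activin A, 70.8 with Wnt3a, 94.8 with both ligands and 94.2 in control, with Wnt3a the low library. The equal-length values were 91.4, 70.8, 85.7 and 92.8, where Wnt3a was again lowest and Activin A lay just below control.

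For Activin A and both ligands, the largest differences from control among shared regions of the whole lists were also in the ID1 window. At chr20:30167922-30169812, 24.2 kb upstream, the percentile was 78.4 with Activin A, 64.3 with Wnt3a, 82.9 with both ligands and 11.9 in control. This region was higher in all 3 treated lists, by 66.5, 52.4 and 71.0 points, and its control peak was too weak to be among the equal-length peaks. The treated values at that length were 22.6 with Activin A, 64.3 with Wnt3a and 52.5 with both ligands. At chr20:30144825-30145621, 47.9 kb upstream, the order was the opposite, at 15.5 with Activin A, no peak with Wnt3a, 44.8 with both ligands and 77.5 in control. It was the region with the strongest control peak among those that had no Wnt3a peak, and at equal length the control peak was the only one. At chr20:30150183-30151383 the percentiles were 91.6 with Activin A, 90.7 with Wnt3a, 82.8 with both ligands and 70.7 in control, so all treated lists were higher there. At equal length they were 69.9, 90.7, 52.4 and 63.6 in the same order, which put both ligands below control. The strongest region of the window without a control peak was chr20:30153373-30155504, at 90.5 with Activin A, 63.5 with Wnt3a and 74.4 with both ligands. Its equal-length values were 66.0, 63.5 and 29.2. In the whole lists it was also the only region of the ID1 window that all 3 treated lists had and control lacked.

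ID2 differed more between libraries than ID1 did. The start of the span used, which may not be the RefSeq start, lay in chr2:8818741-8819628. This region was at percentile 90.8 with Activin A, 64.1 with Wnt3a, 72.6 with both ligands and 64.1 in control. The start had equal-length percentiles of 67.2 with Activin A, 64.1 with Wnt3a, 24.1 with both ligands and 55.3 in control, so both ligands, second highest in the whole lists, were lowest. A region inside the span, chr2:8820706-8822693, was at 93.8 with Activin A, 29.1 with Wnt3a, 96.1 with both ligands and 70.2 in control. Both groups given Activin A were thus higher than control inside the span, by 23.6 and 25.9 points, and Wnt3a alone was lower, with a difference of -41.1 points. The median differences over all regions shared with control were 18.3 points for Activin A, 13.4 for both ligands and -2.77 for Wnt3a. Inside the span the order of the 4 libraries was the same at equal length, at 77.8 with Activin A, 29.1 with Wnt3a, 89.3 with both ligands and 62.9 in control. Just past the 3' end, chr2:8824712-8826542 had peaks with Activin A (91.2) and both ligands (87.0) and none with Wnt3a or in control. It had equal-length peaks in the same 2 lists, at 68.4 and 63.9.

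Upstream of ID2, within 2 kb of the gene, 3 further regions lacked a control peak. At chr2:8817853-8818668 the percentile was 75.1 with Activin A, 8.61 with Wnt3a and 59.4 with both ligands. At chr2:8816111-8817369 it was 55.7 with Activin A and 53.8 with both ligands, and at chr2:8817435-8817825 there was a peak with Activin A only, at 31.8. The region 14.7 kb downstream of the start had peaks in all 4 lists, at 68.6, 1.75, 65.8 and 45.7 for Activin A, Wnt3a, both ligands and control. Wnt3a was lowest in the whole lists at all 4 ID2 regions it had a peak in, but at the start its difference from control was only -0.0324 points. At equal length it was lowest of 4 lists inside the gene only. The region nearest upstream then stood at 10.5 with Activin A and 8.61 with Wnt3a and was absent with both ligands. The downstream region was absent with Activin A and at 1.75, 5.15 and 32.4 with Wnt3a, both ligands and in control. The strongest distal gain was 42 kb upstream at chr2:8776112-8777776, at 64.7 with Activin A and 79.4 with both ligands, and at equal length with both ligands only (43.0).

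ID3 had its strongest peak just past the 3' end of the gene and not over the start. The region chr1:23880231-23884027, 0.382 kb from the gene, was at percentile 96.8 with Activin A, 92.2 with Wnt3a, 98.5 with both ligands and 95.9 in control. Its best peak was 1964 bp wide with Activin A, 1263 bp with Wnt3a, 3551 bp with both ligands and 2047 bp in control. Activin A and Wnt3a each had 2 peaks there, which covered 3560 and 1735 bp together, so the stretch covered was much alike with Activin A and both ligands. The start region, chr1:23884513-23886589, was at 80.5 with Activin A, 56.7 with Wnt3a, 85.5 with both ligands and 63.8 in control. At both places the groups given Activin A were higher than control and Wnt3a alone was lower in the whole lists. Past the 3' end the differences were 0.916 points with Activin A, 2.60 with both ligands and -3.69 with Wnt3a. In the start region they were 16.6, 21.7 and -7.19 in the same order. The medians over all regions shared with control were 18.3, 13.4 and -2.77 points. At equal length the start region stood at 30.0 with Activin A, 56.7 with Wnt3a, 59.9 with both ligands and 55.0 in control, so its Activin A value lay below control there. The region past the 3' end then stood at 88.7, 92.2, 95.9 and 94.9 in the same order, again with Activin A the lowest.

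A region 2.39 kb upstream of the ID3 start, chr1:23888179-23889247, was absent from control and at 88.3 with Activin A, 73.6 with Wnt3a and 77.2 with both ligands. A like pattern held 28.5 kb downstream of the start, toward E2F2, at chr1:23856836-23858728, at 87.0 with Activin A, 74.4 with Wnt3a and 84.5 with both ligands. Both regions were also present in all 3 treated lists and absent from control at equal length, where the upstream one stood at 58.2, 73.6 and 37.0 and the downstream one at 53.3, 74.4 and 57.1. Wnt3a, lowest at both in the whole lists, was then highest at both. A weak peak at chr1:23886738-23887237 was found with both ligands only (26.6) and was absent at equal length. The region 19.9 kb downstream of the start was at 87.6 with Activin A, 47.8 with Wnt3a, 71.1 with both ligands and 82.1 in control. At equal length it stood at 55.5, 47.8, 19.9 and 77.7 in the same order, with control highest. The region 38.7 kb upstream was at 80.3 with Activin A, 87.6 with both ligands and 37.3 in control and had no Wnt3a peak, which gave it the largest difference from control of the ID3 window in the whole lists. The equal-length values were 29.2 with Activin A, 65.6 with both ligands and 22.0 in control.

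MSX2 had no control peak over its start. The region chr5:174150946-174152441, which holds the start and the promoter printed above, was at percentile 83.4 with Activin A, 53.6 with Wnt3a and 78.7 with both ligands. It was 1368 bp wide with Activin A, 500 bp with Wnt3a and 1496 bp with both ligands. All 3 peaks were also among the equal-length peaks, at 40.3, 53.6 and 41.0, where Wnt3a was highest, and no equal-length control peak met the region. Near the other end of the gene, chr5:174158115-174160510 had peaks in all 4 lists, at 62.7 with Activin A, 56.1 with Wnt3a, 63.7 with both ligands and 44.2 in control. At equal length only the Wnt3a (56.1) and control (30.6) peaks were left there. A peak inside the gene at chr5:174152466-174153150 was found with Activin A only (29.3) and was absent at equal length.

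The region 3.83 kb upstream of the MSX2 start, chr5:174146763-174148733, held the strongest control peak of the window. It was at 83.0 with Activin A, 11.7 with Wnt3a, 82.2 with both ligands and 74.0 in control. At equal length it stood at 38.9, 11.7, 50.8 and 67.6 in the same order, so all treated lists were below control. In the whole lists the difference of Wnt3a from control was -62.3 points, the lowest among the 18 regions that the Wnt3a and control lists shared in the 5 windows. The region 11.5 kb downstream of the start, chr5:174162345-174163779, was absent from control and at 82.1 with Activin A, 39.4 with Wnt3a and 77.3 with both ligands. At equal length these values were 35.7, 39.4 and 37.0, close to each other. Another region that all treated lists had and control lacked lay 31.2 kb upstream, at 61.8, 30.0 and 47.0 in the same order, and at equal length had a Wnt3a peak only.

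**Figure D3:**
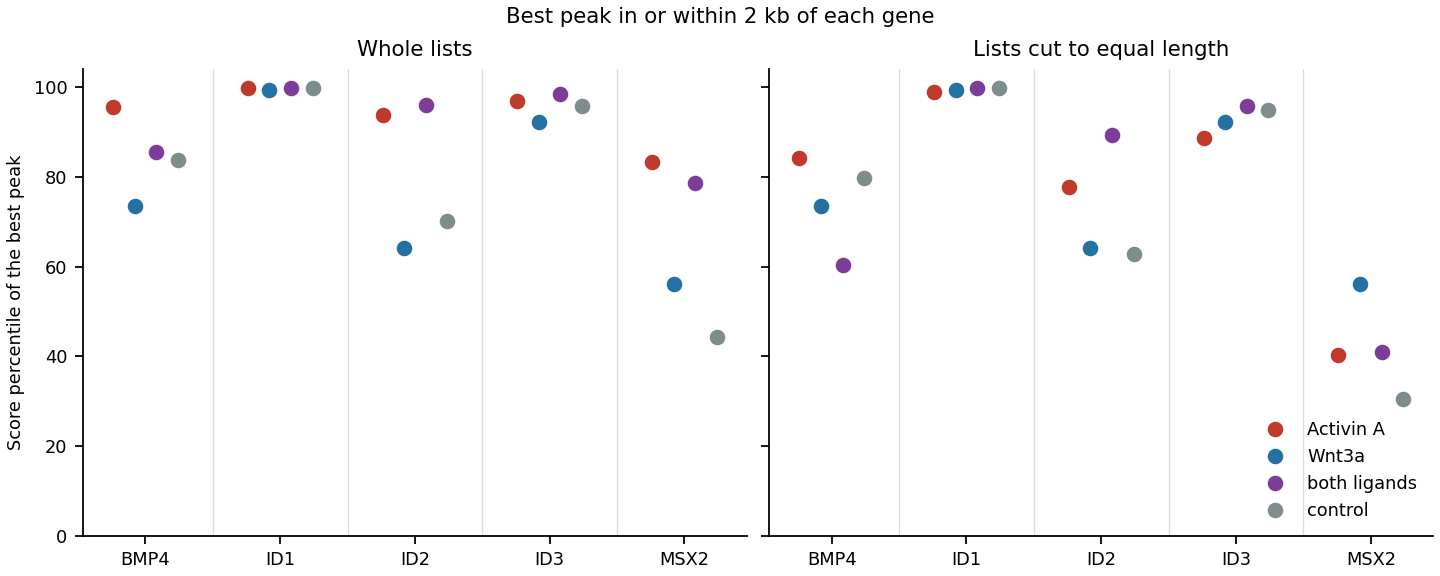
Score percentile of the best peak in or within 2 kb of each gene in the whole lists (left) and in the equal-length lists (right), 1 point per library. ID1 lay near the top of every list in both panels, and at each of the 5 genes the order of the libraries differed between the panels.

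The best peaks in or within 2 kb of the genes can be set side by side. For BMP4 they were at 95.6 with Activin A, 73.5 with Wnt3a, 85.7 with both ligands and 83.8 in control. For MSX2 they were at 83.4, 56.1, 78.7 and 44.2, but they were not the same peak, since the best control and Wnt3a peaks were those near the 3' end. Across genes the order in control was ID1, ID3, BMP4, ID2 and MSX2. The BMP4 order of libraries changed from Activin A, both ligands, control, Wnt3a in the whole lists to Activin A, control, Wnt3a, both ligands at equal length. At ID1, ID2 and ID3 both ligands gave the highest value in either form, though not always from the same peak. For ID2 the best Wnt3a peak lay at the start of the span, and those of the other lists lay inside it. At that start both ligands were lowest at equal length, at 24.1. With 1 library per group there is no spread against which these orders could be read.

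Activin A was compared with control to see where that ligand and the change of medium went with open chromatin. With Activin A, 41 of the 67 regions had no control peak, which is 61.2% (48.5 to 72.9), and the share over all Activin A regions of the genome was 70%. By gene these gained regions were 9 of 10 for BMP4, 10 of 25 for ID1, 7 of 10 for ID2, 7 of 12 for ID3 and 8 of 10 for MSX2. The interval of the pooled share contains the genome-wide share. It covers counting error only and takes neighbouring regions as independent, so nothing is concluded from it. By window the share ran from 40% for ID1 to 90% for BMP4. Of the 27 control regions 1, in the ID1 window, had no Activin A peak, which is 3.70% against 11.5% genome-wide. At equal length 9 of 27 Activin A regions were gained, where the genome-wide share was 32.2%, and 5 of 23 control regions were lost, where it was 30.2%. Of the 9, 2 each lay in the windows of ID1, ID2, ID3 and MSX2 and 1 in that of BMP4.

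Among the 26 regions with a peak in both the Activin A and the control lists, 14 were at least 10 percentile points higher with Activin A and 2 were lower by as much. Genome-wide these shares were 64.8% and 4.96%. The median difference was 12.8 points in the windows and 18.3 points over all such regions. All 3 such ID2 regions were higher by 22.9 to 26.7 points in the whole lists, and both regions that were lower lay in the ID1 window. At equal length 3 of 18 such regions were higher and 6 lower, beside 28.6% and 31.2% genome-wide, and the median was -1.06 points in the windows and -0.228 over all regions.

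For Wnt3a, 11 of 29 regions had no control peak, 37.9% (20.7 to 57.7), and the genome-wide share was 33.1%. They were 4 of 5 for BMP4, 1 of 10 for ID1, 1 of 4 for ID2, 2 of 5 for ID3 and 3 of 5 for MSX2. Of the 27 control regions 9 had no Wnt3a peak, 33.3% against 46.5% genome-wide, and 7 of these were in the ID1 window and 2 in that of ID3. The control regions of BMP4, ID2 and MSX2, which numbered 1, 3 and 2, all had a Wnt3a peak. At equal length 12 of 29 were gained and 6 of 23 lost, beside 39% and 39.9% genome-wide. Of the 18 shared regions, 4 were at least 10 points higher with Wnt3a and 7 lower, where genome-wide shares were 25.6% and 37.4%. The median difference was -2.09 points in the windows and -2.77 over all regions. At equal length 3 of 17 were higher and 5 lower, beside 31.1% and 32.2% genome-wide, and the medians were -0.436 and -0.0759.

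With both ligands, 28 of 53 regions had no control peak, 52.8% (38.6 to 66.7), beside 62.5% genome-wide. They were 6 of 7 for BMP4, 7 of 21 for ID1, 6 of 9 for ID2, 5 of 10 for ID3 and 4 of 6 for MSX2. Of the control regions 2, both in the ID1 window, had no peak with both ligands, 7.41% against 15.2% genome-wide. Of the 25 shared regions, 12 were at least 10 points higher with both ligands and 3 lower, where the genome-wide shares were 56.2% and 8.64%. The median difference was 8.50 points in the windows and 13.4 over all regions, and at equal length these medians were -5.94 and -0.241. At that length 2 of 18 shared regions were higher and 8 lower, beside 28.2% and 30.5% genome-wide. At equal length 12 of 30 regions were gained and 5 of 23 lost, beside 32.9% and 30.9% genome-wide.

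**Figure D4:**
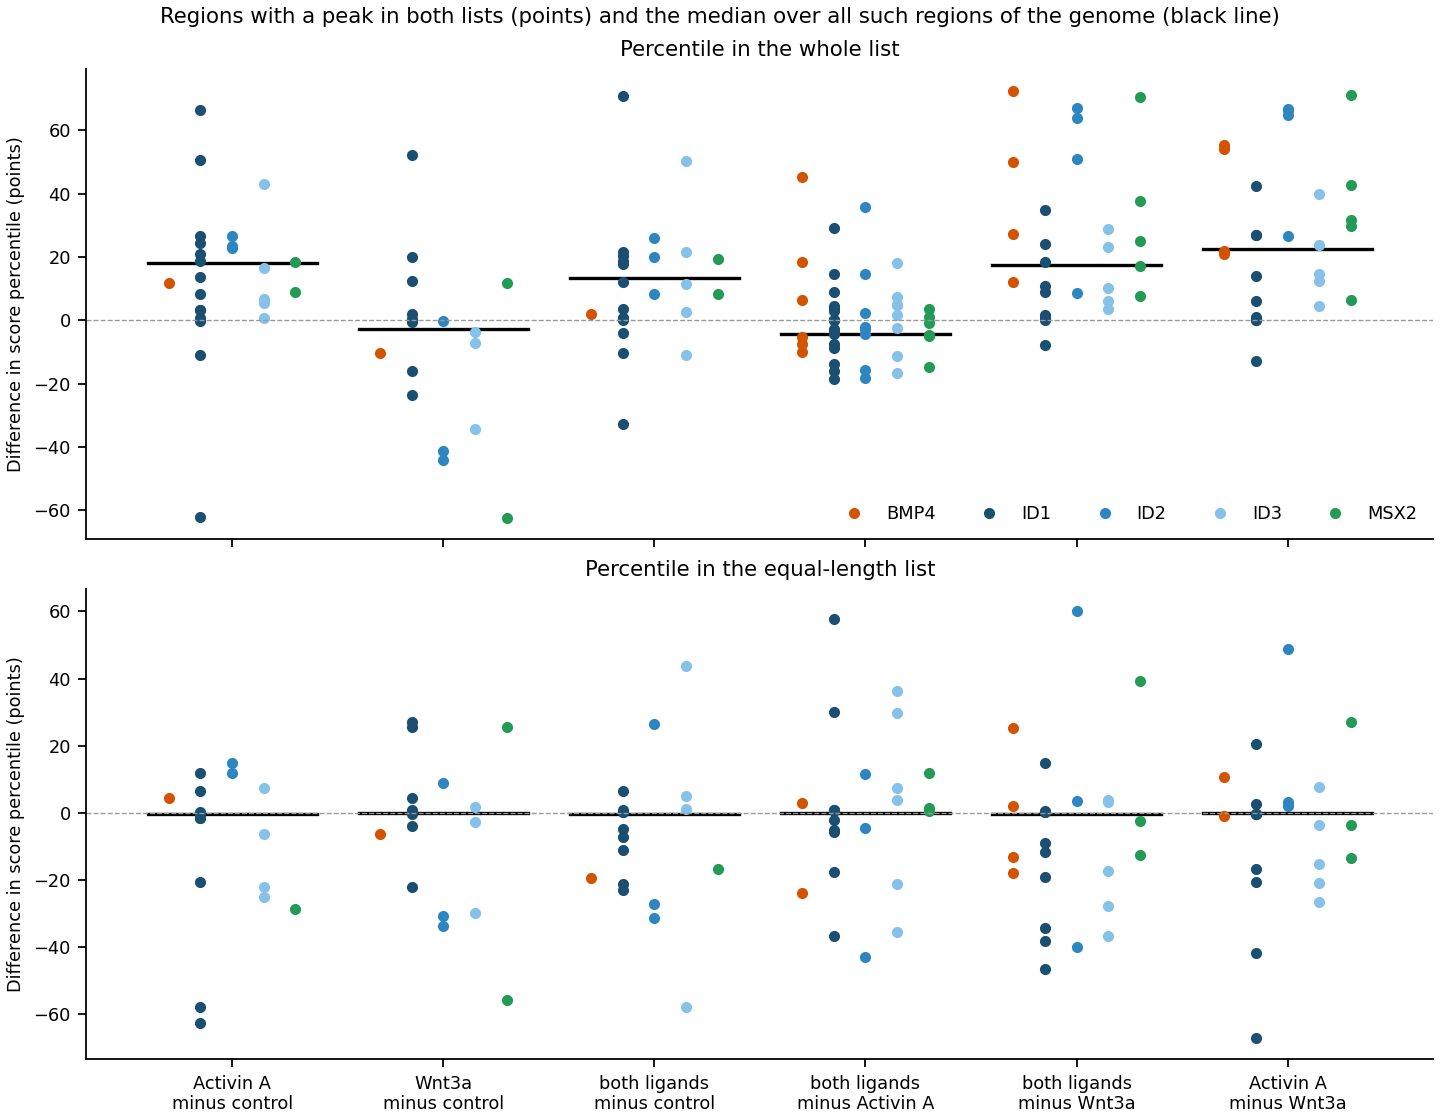
Difference in score percentile (points) for each region of the windows with a peak in both lists of a comparison, coloured by gene, in the whole lists (top) and the equal-length lists (bottom), with black lines at the median over all such regions of the genome. In the whole lists the points spread around medians that themselves lie between -4.43 and 22.7, whereas at equal length those medians are near 0.

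The treated groups shared a medium, so as far as the labels say they differed only in the ligands. Each was still 1 library of unknown depth, so an effect of the ligands cannot be told apart from a difference between libraries. Both ligands against Activin A gave 8 of 53 regions without an Activin A peak, 15.1% (6.75 to 27.6) beside 21% genome-wide. In the other direction 22 of 67 Activin A regions had no peak with both ligands, 32.8% beside 39.4%. Of 45 shared regions, 7 were at least 10 points higher with both ligands and 8 lower, where the genome-wide shares were 15.4% and 37.2%. The median difference was -0.709 points in the windows and -4.43 over all regions. The largest was in the BMP4 window, where the region 15.4 kb downstream of the start was at 61.6 with both ligands and 16.3 with Activin A. Neither of these peaks was among the equal-length peaks. The difference was -9.92 points at the peak shared by all lists in BMP4 and 2.30 points inside ID2. At equal length these 2 differences were larger, at -23.9 and 11.4 points. At equal length 6 of 30 regions were gained and 3 of 27 lost, beside 21.5% genome-wide for either. Of 24 shared regions 6 were then higher and 6 lower, beside 26.8% and 27.2%, with medians of 0.682 points in the windows and 0.00474 over all regions.

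Set against Wnt3a alone, both ligands gave 25 of 53 regions without a Wnt3a peak, 47.2% (33.3 to 61.4) beside 67.9% genome-wide, and 1 of 29 Wnt3a regions was lost, where 9.27% were lost genome-wide. That region was the one 21.5 kb upstream of BMP4. Of 28 shared regions 18 were at least 10 points higher with both ligands, where the share was 63%, and 0 were lower, where it was 6.09%. The largest difference was 72.6 points, at the region 11.9 kb downstream of the BMP4 start. The region upstream of MSX2 followed with 70.6 points, and that inside ID2 with 67.1 points. At equal length the differences of these 3 regions were 25.4, 39.1 and 60.2 points. At that length 5 of 30 regions were gained and 4 of 29 lost, beside 33.6% and 30.6% genome-wide. Of 25 shared regions 4 were then higher and 12 lower, beside 30.4% and 31.4%, with medians of -9.16 points in the windows and -0.256 over all regions.

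Activin A against Wnt3a gave 39 of 67 regions without a Wnt3a peak, 58.2% (45.5 to 70.2) beside 74.6% genome-wide, and 1 of 29 Wnt3a regions had no Activin A peak, beside 6.02%. Of 28 shared regions 20 were at least 10 points higher with Activin A and 1 was lower, where the genome-wide shares were 70.2% and 3.7%. The lower one lay 19.4 kb upstream of ID1, at 79.1 with Activin A and 92.0 with Wnt3a. The median difference was 25.3 points in the windows and 22.7 over all regions. All 4 ID2 regions shared by these lists were higher with Activin A, by 26.8 to 66.8 points. At equal length these ID2 differences were 1.93 and 3.09 points at the upstream and start regions and 48.8 points inside the gene, and the downstream region had no Activin A peak. Over the 5 windows 5 of 27 regions were then gained and 7 of 29 lost, beside 33.3% and 30.3% genome-wide. Of 22 shared regions 4 were higher and 8 lower, beside 30.5% and 31%, with medians of -0.687 points in the windows and -0.0142 over all regions. In the whole lists the shares gained over Wnt3a, by Activin A and by both ligands, were below those of the genome by more than their counting intervals, which do not cover differences between libraries or the grouping of regions in 5 windows.

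The combinations of lists in which each region appeared were also counted. Of the 76 regions, 18 had a peak in all 4 lists, 23.7% beside 14.8% of all regions of the genome. Another 10 had a peak in all 3 treated lists and none in control, 13.2% beside 5.24%. These 10 were 3 each in the windows of BMP4 and MSX2, 2 in that of ID3, and 1 each in those of ID1 and ID2. The pattern depended on list length, and its shares were not counted at equal length. At that length a treated peak was missing 11.9 kb downstream and 23.7 kb upstream of the BMP4 start. The same held for the ID2 region and for that 31.2 kb upstream of MSX2. A further 20 were found with Activin A only, 26.3% beside 30.1%, and 11 with Activin A and both ligands only, 14.5% beside 21.9%. The last kind was most frequent around ID2, with 4 of its 11 regions. Regions of both ligands only numbered 7, 9.21% beside 12.4%, and 1 region, in the BMP4 window, was found with Wnt3a only, 1.32% beside 0.933%. No region was found in control alone, and nothing is read from this because the genome-wide share of that pattern was not counted.

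Peaks on either side of the 50 kb limit can be compared for the ID1 window. The outermost Activin A peak inside lay 49.9 kb from the gene at percentile 7.22, and the nearest outside lay 52.7 kb away at 28.0. In control the outermost peak inside lay 47.6 kb from the gene at percentile 77.5, and the nearest outside 54.8 kb away at 88.9. An absent peak says only that none was called at the depth of that library.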

How the data were processed

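ATAC-seq peak lists of 4 H1 libraries, 1 per group, were used as deposited. Groups were taken from the labels. The lists give chromosome, start, end, a name in the style of MACS and a score, and that score is the authors' value as deposited, with its definition not stated in the sources used here. The build was hg19, and Bowtie2 2.2.2 and CASAVA 1.8 are the tools listed, per the submitters' processing notes. How peaks were called, whether duplicates were removed or reads shifted for the transposase, and read numbers are not given in the sources used here. Each would change how many weak peaks were called, so depth is unknown, and scores were compared only as percentiles within a list (ties at mid rank). Each library had its own list.

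Peaks overlapping by at least 1 base or touching were merged over the 4 lists. A region was gained where the first list named had a peak and the other had none, and lost in the reverse case. Differences of 10 percentile points or more were counted. Shares carry exact Clopper-Pearson 95% intervals for counting error only. The merging was tested on simulated data. Coordinates are on hg19, counted from 1, except those of RefSeq promoter windows on GRCh38.p14, and all 5 genes matched a window by symbol. The members, gene lists and motifs were chosen with earlier results of these data known. Named were every region in or within 2 kb of a gene, and per window the highest other region, the largest difference for each treatment and up to 3 gained regions per treatment; a few others were named after their values were seen. Other BMP pathway genes and marker genes had no hg19 positions here and were not analysed. Alternatives covered window size, list length, score threshold, merging distance, overlap, chromosomes and width. Python 3.11.15, numpy 2.4.6, pandas 2.3.3, scipy 1.17.1 and matplotlib 3.10.9 were used.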

Additional observations from a re-analysis of the deposited data

How the results depend on the processing

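No paired analysis was possible because the lists came from single libraries, none of which could be left out of its group. Windows of 25 kb held 40 regions after Activin A and 35 after both ligands, with 22 gained and 0 lost for Activin A, 2 lost for Wnt3a, and 18 gained and 1 lost for both ligands. Windows of 100 kb held 42 control regions, with 4 lost for Activin A, 19 for Wnt3a and 6 for both ligands. At equal list length there were 27 regions after Activin A and 30 after both ligands, with 9 gained and 5 lost for Activin A and 12 gained and 5 lost for both ligands. The top 50% of each list left 39 regions for Activin A, 17 for Wnt3a, 35 for both ligands and 17 for control, with 23 gained for Activin A, 7 gained for Wnt3a and 1 lost for both ligands. Merging peaks within 500 bases gave 27 gained for Activin A. An overlap of at least 50% of each peak gave 5 lost for Activin A and 5 for both ligands. Leaving out the ID1 window, an alternative added after the data were seen, left 0 lost for Activin A, 2 for Wnt3a and 0 for both ligands. These settings change which regions are compared and how many, and the cause of each movement was not tested. The median percentile of the 20 best gene peaks was 93.0, and became 82.0 at equal list length, 81.9 for the peak nearest the gene start and 94.0 for the percentile of peak width. Of the other checks, also added after the data were seen where they concern percentile differences, 8 of the 12 counts of differences against control or between treatments moved by over 1.5 times at equal list length. Over all genes and comparisons, 41 of the recomputed region counts stayed within 1.5 times their value and 35 did not. Unknown depth limits what an absent peak means.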
